A study of Mus musculus with 7 samples.

Results

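Imprinted genes, of which cells read mainly the copy inherited from 1 parent, were followed in mouse cortex as a set of 37 genes lying outside the Dlk1-Meg3 cluster. They were chosen by name from genes known to be imprinted in the mouse, and each symbol was found on 1 of the 56941 rows of the deposited table. The genes fall into 17 loci. By background knowledge 21 are read from the paternal copy and 11 from the maternal copy. The other 5 (Gnas, Grb10, Inpp5f, Ddc and Blcap) were classed as mixed, because the copy read depends on the transcript form or the tissue. The division is approximate, since the copy read also depends on the tissue for some genes of the first 2 classes, such as Ube3a, Igf2 and Igf2r. The copy read in this cortex was not measured. The samples were cortex, taken as fresh tissue at postnatal day 7, in 4 wild-type (WT) samples and 3 samples from mice with the P213L variant of Hnrnph2. Hnrnph2 is an X-linked gene for a heterogeneous nuclear ribonucleoprotein, an RNA-binding protein that acts in splicing, and the series title concerns oligodendrocyte differentiation and myelination. No other allele or agent is named for either group, and the strain, the sex and the zygosity of the variant are stated nowhere in the sources used here. The values are transcripts per 1000000 (TPM), which are read numbers divided by gene length and scaled to the same total in every library. They do not separate the 2 parental copies, so what could be compared was the summed level of each gene.

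In imprinting, DNA methylation set in the egg or the sperm marks a control region, and the mark is kept on that copy after fertilisation. The zinc finger proteins ZFP57 and ZFP445 bind the marked copy and recruit TRIM28, which holds the mark in place. At a typical locus the control region governs several genes at once, often a long noncoding RNA from 1 copy and protein-coding genes from the other. Paternally read genes have often been described as favouring growth and maternally read genes as restraining it. In the brain, genes of the Prader-Willi and Angelman region on chromosome 7 are known from syndromes of feeding, sleep and speech.

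Promoter sequences from RefSeq (GRCm38.p6) show the CpG dinucleotides, the letters that DNA methylation acts on. Below are the 250 bases before the start of Nap1l5 (chr6:58907127-58907376, minus strand), Mest (chr6:30737800-30738049, plus strand), Zim1 (chr7:6696433-6696682, minus strand) and Magel2 (chr7:62376729-62376978, plus strand). They were chosen because the first 3 hold the hexamer TGCCGC or its reverse complement, the core known to be bound by ZFP57 when methylated, and the fourth does not. Capitals mark each CpG.
Nap1l5: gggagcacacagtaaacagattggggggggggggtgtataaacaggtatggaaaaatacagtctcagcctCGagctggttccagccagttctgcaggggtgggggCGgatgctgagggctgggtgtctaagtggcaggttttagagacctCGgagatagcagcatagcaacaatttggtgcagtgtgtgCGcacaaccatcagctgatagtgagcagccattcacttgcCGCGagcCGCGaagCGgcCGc
Mest: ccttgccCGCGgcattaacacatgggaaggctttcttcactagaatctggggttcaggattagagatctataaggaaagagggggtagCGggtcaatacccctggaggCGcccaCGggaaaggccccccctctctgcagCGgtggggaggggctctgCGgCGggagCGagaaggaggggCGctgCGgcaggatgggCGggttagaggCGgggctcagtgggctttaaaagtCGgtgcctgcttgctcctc
Zim1: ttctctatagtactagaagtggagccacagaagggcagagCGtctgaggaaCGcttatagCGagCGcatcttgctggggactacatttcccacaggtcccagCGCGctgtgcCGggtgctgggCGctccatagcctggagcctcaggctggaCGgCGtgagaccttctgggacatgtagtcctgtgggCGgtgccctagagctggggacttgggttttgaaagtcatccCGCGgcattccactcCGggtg
Magel2: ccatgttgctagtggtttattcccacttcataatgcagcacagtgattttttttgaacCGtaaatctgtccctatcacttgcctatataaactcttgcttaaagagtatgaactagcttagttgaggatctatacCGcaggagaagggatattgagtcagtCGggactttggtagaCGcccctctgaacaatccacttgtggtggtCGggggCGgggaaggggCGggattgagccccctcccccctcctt
The runs hold 10 CpG before Nap1l5, 14 before Mest, 14 before Zim1 and 7 before Magel2. The hexamer, read on both strands, starts at base 227 before Nap1l5, at bases 9 and 184 before Mest and at base 231 before Zim1. Of the 37 genes, 30 had at least 1 promoter window in the RefSeq table, 46 windows in all, each with 250 bases before the start and 50 after it. The hexamer was found in 13 of these 46 windows (28.3%), from 12 genes, and in 11.6% of all 32851 windows of the same length. The windows of the imprinted genes held a median of 15 CpG and all windows a median of 7. Among windows with at least 10 CpG the hexamer was found in 12 of 30 (40%), against 22.5% of 14281. By class it was found in windows of 7 of 17 paternally read, 4 of 8 maternally read and 1 of 5 mixed genes. Windows of 1 gene can overlap, and those of Peg3 and Usp29 share 263 bases, so the counts are not independent. A match is a description of the letters and not a bound site.

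MicroRNA genes at 2 of the loci are shown next, since their rows are read beside the members below. The RefSeq mature sequences follow, with the seed (bases 2 to 8), the part that pairs with target messages, in capitals.
miR-344-3p: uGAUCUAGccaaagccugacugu
miR-344-5p: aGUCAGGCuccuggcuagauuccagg
miR-675-5p: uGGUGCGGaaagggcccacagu
miR-675-3p: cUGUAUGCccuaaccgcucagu
Both miR-344 arms are encoded in the same letters by Mir344 (3p arm at chr7:61877782-61877804, minus strand) and Mir344-2 (3p arm at chr7:61940036-61940058, minus strand), which lie in the Snrpn-Ube3a region. In the miR-344 family the seed GAUCUAG is shared by 2 arms of different name and the seed GUCAGGC by 6. The miR-675 arms come from a hairpin within the H19 transcript (5p arm at chr7:142577112-142577133, minus strand).

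The table gives no read totals, so depth was estimated from its low values, at 57.2 M counted units (M, 1000000) in WT 3, 66.4 to 72.5 M in WT 1, 2 and 4 and 71.2 to 79.4 M in the 3 P213L libraries. WT 3 stood apart: its correlation with the other 6 libraries over tested genes was 0.943 to 0.949, where the lowest correlation among those 6 was 0.981. It was the lowest of the 7 libraries for 55.2% of the tested rows and the highest for 21.6%. Of the 37 imprinted genes it was the lowest for 19 and the highest for 7. Among the 19 members with an exon length of at least 4725 bases, the level in WT 3 was a median of 0.668 of the median of the other 6 libraries. Among 17 shorter members (Phlda2, at 0 to 0.14 TPM, is left out) that ratio was 1.06. Where leaving out WT 3 moved a fold change given here, the value without it stands beside it. Choroid plexus markers, at a summed 1271 TPM in WT 2 and 13.3 to 19.4 TPM in the other 6 libraries, set WT 2 apart as well. Whether each sample is a different animal is not said in the labels, so p-values speak only of the spread among these 7 samples.

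The imprinted genes together held 0.347 to 0.413% of the TPM of a library. The paternally read genes held 0.252 to 0.328%, the maternally read genes 0.0114 to 0.0168% and the mixed genes 0.0733 to 0.0835%. Nnat, for neuronatin, a small membrane protein of neurons, was the most abundant member with a mean of 1149 TPM over the 7 libraries. Gnas, for the stimulatory G protein alpha subunit, followed at 498 TPM, and Snrpn, for a protein of the spliceosome core, at 459 TPM. Ndn, for necdin, a neuronal growth-restraining protein of the MAGE family, stood at a mean of 349.6 TPM and Nap1l5, for a nucleosome assembly protein-like factor, at 304 TPM. The order of Gnas and Snrpn was not the same in every library, since Snrpn exceeded Gnas in WT 3. At the lower end stood Kcnq1ot1, a long noncoding RNA, at 0.875 TPM, Calcr, for the calcitonin receptor, at 0.733 TPM, and Phlda2, a growth-restraining gene best known from the placenta, at 0.079 TPM. These 3 were below the minimum mean of 1 TPM and were left out of the main limma test below, though Kcnq1ot1 enters a locus pair. Phlda2 stood at 0.14, 0, 0.05 and 0 TPM in WT 1 to 4 and at 0.14, 0.10 and 0.13 TPM in P213L 1 to 3, which by the depth estimate is 0 to 3 counted units, too few to compare.

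**Figure D1:**
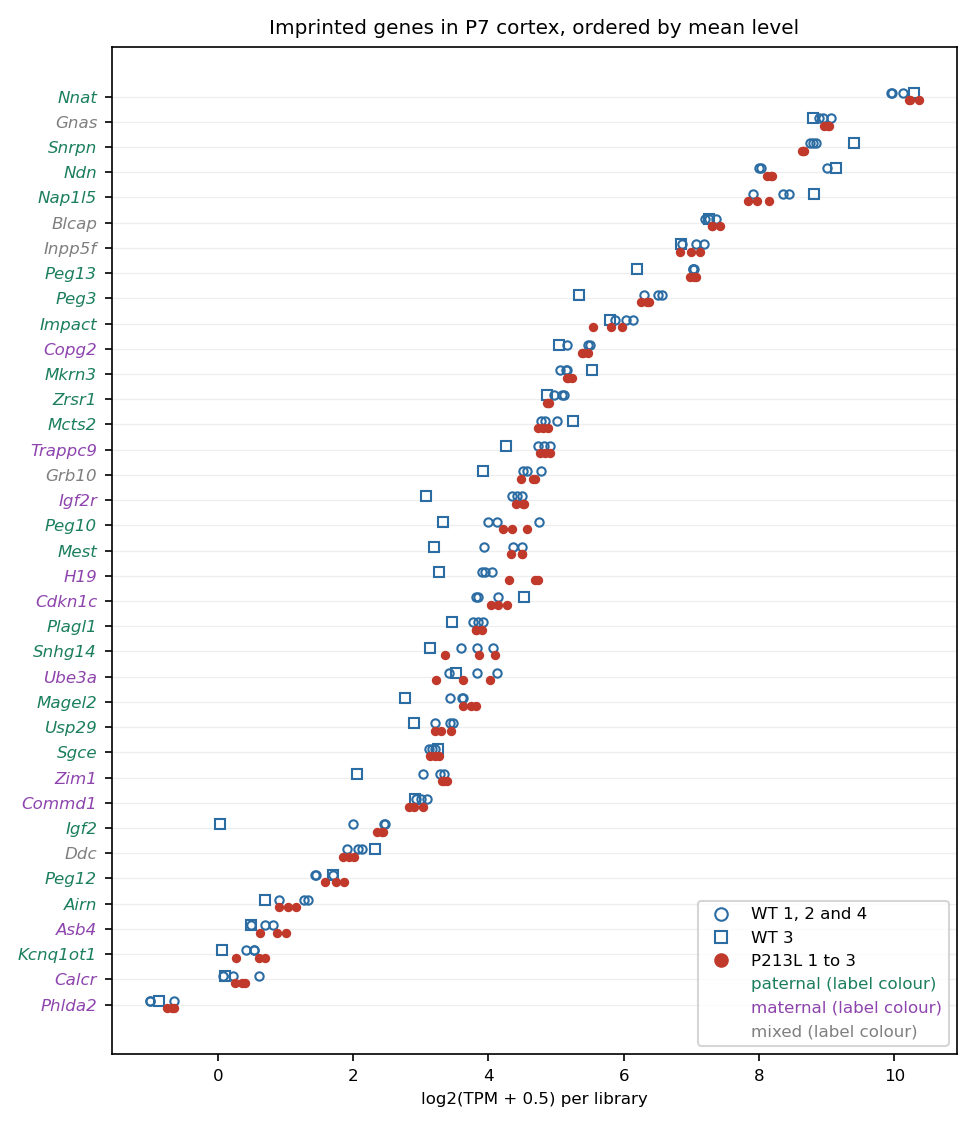
Level of each of the 37 imprinted genes in each library on the log2(TPM + 0.5) scale, ordered by mean TPM, with WT 1, 2 and 4 as open circles, WT 3 as an open square and P213L as filled circles. Gene names are coloured by the parental copy read, and WT 3 is the lowest library for 19 genes and the highest for 7.

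The plot of levels by library shows that the groups lay on top of each other for most members, and that the widest spread was within WT. In limma's moderated test on log2(TPM + 0.5), 0 of the 34 tested members passed an adjusted p of 0.05, and neither did any of the 17582 genes tested (0%). At an unadjusted p under 0.05 there was 1 of 34 members (2.94%), H19, where 657 of all genes (3.74%) were past it. Every P213L value lay above every WT value for H19 and Magel2 and below every WT value for Snrpn. These 3 of 34 members (8.82%) compare with 8.69% of all genes tested, 5.94% higher in P213L and 2.75% lower. The share of members whose groups did not overlap was thus near that of all genes. Without WT 3 there were 4 of 34 members at an unadjusted p under 0.05 (H19, Nnat, Snrpn and Zrsr1), or 11.8%, against 8.65% of all genes. Without WT 3 the groups did not overlap for 6 members (H19, Magel2, Mkrn3 and Nnat higher, Snrpn and Zrsr1 lower), or 17.6%, against 14.2% of all genes.

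Paternally and maternally read members were compared by direction and median. Of the 20 paternally read members tested, 12 had a positive and 8 a negative log2 fold change (P213L over WT), with a median of 0.08. The 9 maternally read members tested divided 7 to 2, with a median of 0.16, and the 5 mixed members 3 to 2, with a median of 0.07. Over all genes tested the median was 0.07 and 63.4% of fold changes were positive, so a small positive value is the background of this table. Scaling by the median of ratios moved the median of all genes to -0.0053 and the positive share to 49.0%. Under it the paternally read members divided 10 to 10 (median 0.00397) the maternally read members 6 to 3 (median 0.07) and the mixed members 1 to 4. With quantile normalization they divided 9 to 11, 6 to 3 and 3 to 2, and the positive share over all genes was 49.4%. Without WT 3 the divisions were 9 to 11 (median -0.03) and 7 to 2 (median 0.06), with a median over all genes of -0.00099. The difference between the 2 classes was not tested.

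**Figure D2:**
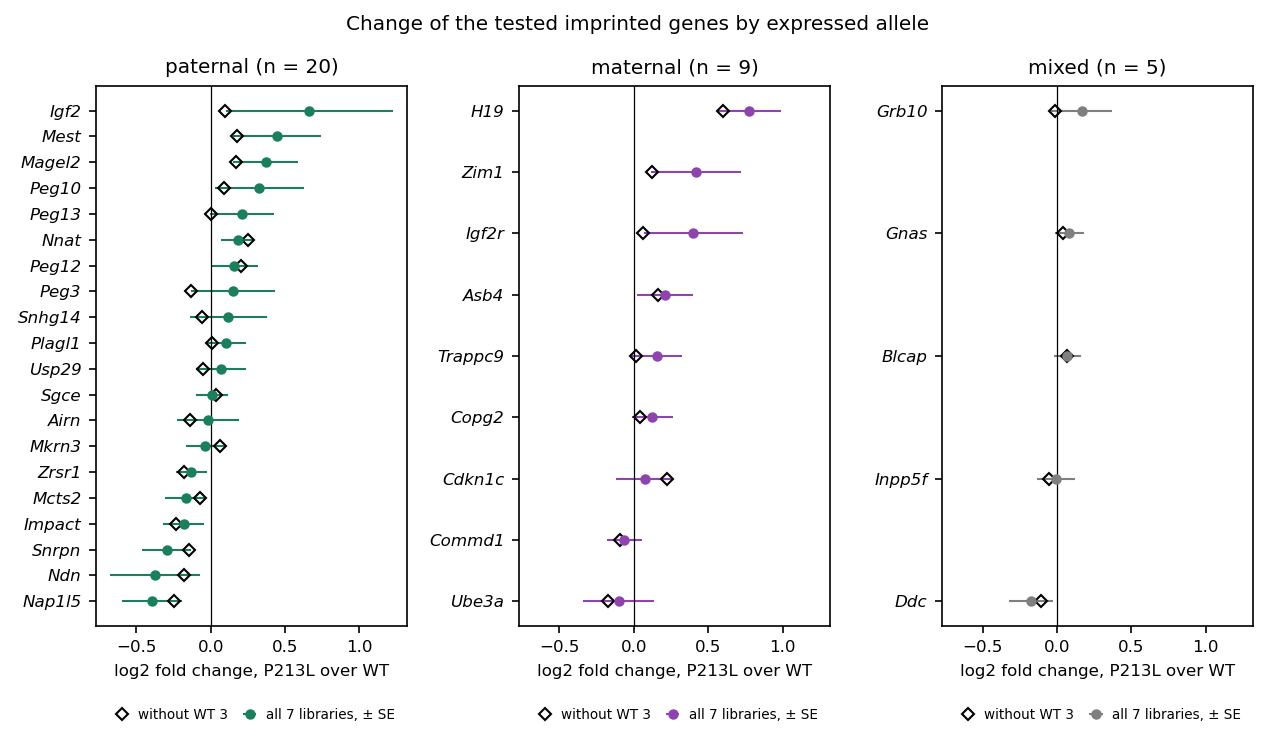
Log2 fold change (P213L over WT, on log2(TPM + 0.5)) of the 34 tested imprinted genes, in panels by the parental copy read, with all 7 libraries (filled circles, bars ± SE) and without WT 3 (open diamonds). The values without WT 3 lie closer to 0 for 23 of the 34 genes, and H19 is the maternally read gene farthest from 0 in both.

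The plot of fold changes by parental copy shows how far single values rest on WT 3. The median size of a fold change over the 34 members was 0.16 with all libraries and 0.10 without WT 3. Without it 6 members changed sign and 23 of 34 came closer to 0. The 6 were Peg3, Usp29, Snhg14, Mkrn3, Grb10 and Peg13.

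H19 and Igf2 are neighbours on chromosome 7 that share enhancers and a control region. H19 (chr7:142575529-142578143 in GENCODE vM21, minus strand) is a noncoding RNA read from the maternal copy and the host of miR-675. Igf2 (chr7:142650766-142666816, minus strand) encodes insulin-like growth factor 2 and is read from the paternal copy in most tissues. H19 stood at 14.9, 16.2, 9.14 and 14.5 TPM in WT 1 to 4 and at 26.02, 25.2 and 19.2 TPM in P213L 1 to 3. All 3 P213L values lay above all 4 WT values. The means were 13.7 ± 3.11 TPM in the WT and 23.5 ± 3.74 TPM in the P213L libraries (SD, n = 4 and 3), a log2 fold change of 0.78 ± 0.21 (SE). In limma the unadjusted p was 0.00686 and the adjusted p 0.827, so H19 did not pass. The exact permutation test gave a two-sided p of 0.0286, the smallest that 4 against 3 libraries can give. The log2 fold change was 0.60 without WT 3, 0.60 to 0.91 with each library left out in turn and 0.68 to 0.78 over 4 scalings. Over the 20 alternatives limma's adjusted p ran from 0.0160, with sample weights, to 0.976, and the lowest of the other 19 was 0.397.

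Igf2 stood at 5.05, 5.01, 0.523 and 3.51 TPM in the WT and at 4.92, 4.63 and 4.85 TPM in the P213L libraries. The library WT 3 lay far below the other 6, and the remaining values overlapped. For Igf2 the log2 fold change was 0.66 ± 0.56 (SE) with all libraries and 0.09 without WT 3. The log2 difference of Igf2 less H19 within a library was -1.47, -1.60, -3.24 and -1.91 in WT and -2.29, -2.33 and -1.88 in P213L. The groups overlapped (difference -0.11, exact permutation p = 0.914; -0.51 without WT 3).

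Igf2 is known to be high in the meninges, the membranes on the cortical surface, and markers of meningeal fibroblasts were read beside both genes. All 15 markers were above 0 in every library, and their summed level was 268, 236, 167 and 212.9 TPM in the WT and 295, 335 and 259 TPM in the P213L libraries. Of the 15 markers 13 had a positive log2 fold change (median 0.29), 4 were at an unadjusted p under 0.05, all 4 higher in P213L, and 0 passed the adjusted test. Over all genes 63.4% had a positive fold change and 3.74% were at an unadjusted p under 0.05. Without WT 3, 14 of 15 markers were positive (median 0.24), where 49.7% of all genes were. The 2 negative markers with all libraries were Ogn (-0.27) and Lum (-0.02), and Ogn (-0.28) remained negative without WT 3. Islr, a surface protein of fibroblasts, stood at 25.02 ± 3.44 TPM in the WT and 33.03 ± 3.43 TPM in the P213L libraries. Foxc1, a transcription factor of meningeal development, stood at 8.86 ± 0.904 and 11.4 ± 0.455 TPM, and Slc6a13, a GABA transporter, at 19.3 ± 5.42 and 28.7 ± 3.97 TPM (SD, n = 4 and 3). The part of meningeal tissue in the H19 and Igf2 values was not tested. In bulk tissue fewer cells of a type and less RNA per cell cannot be told apart.

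**Figure D3:**
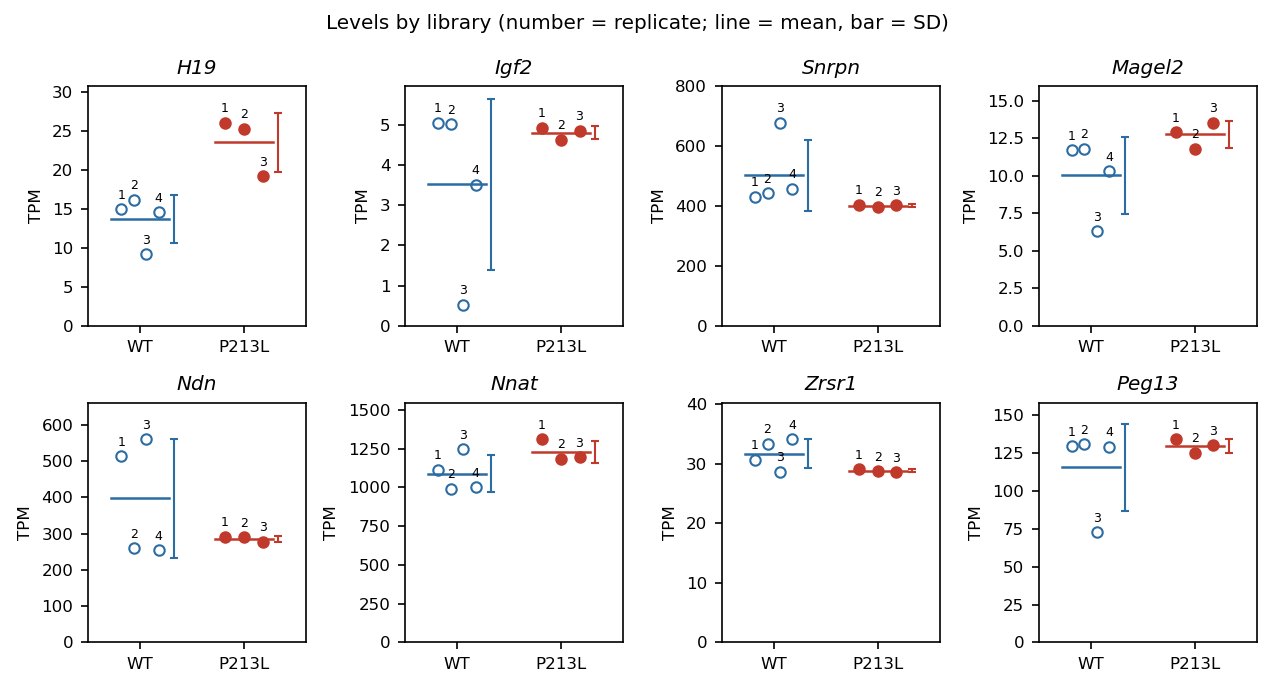
TPM in each library for 8 imprinted genes, with WT as open and P213L as filled circles, numbers giving the replicate, horizontal lines the mean and bars the SD (n = 4 and 3). The groups do not overlap for H19, Magel2 and Snrpn, WT 3 lies apart for Igf2, Snrpn and Peg13, and WT 1 and WT 3 lie apart for Ndn.

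The row of Mir675, the hairpin inside H19, was 0 in all 7 libraries. It covers 84 bases, and a 0 in a library of poly(A) RNA does not show that the mature microRNA was absent. The list of small RNA genes at imprinted loci held 22 names, 20 of them in the table. Of these, 4 passed the filter on low values, 3 positive and 1 negative, where 63.4% of all genes tested were positive. Mir344-2 was the 1 at an unadjusted p under 0.05, at 4.95, 2.01, 1.37 and 6.85 TPM in the WT and 13.5, 13.7 and 17.4 TPM in the P213L libraries. The groups did not overlap, and the log2 fold change was 2.04 ± 0.46 (SE; limma unadjusted p = 0.00221, adjusted p = 0.827), and 1.71 without WT 3. Its row covers 80 bases, and by the depth estimate the values are 2 to 9.5 counted units in WT and 20.5 to 29 in P213L. Mir344, which encodes the same mature arms as Mir344-2, stood at 0.556, 0.565, 0 and 2.43 TPM in the WT and 2.16, 1.41 and 2.52 TPM in the P213L libraries, with overlapping groups and 0 to 5 counted units. Mir344i stood at 0 to 3.05 TPM in the WT and 0.816 to 4.67 TPM in the P213L libraries. Mir344 and Mir344i averaged 0.887 and 0.912 TPM in the WT and 2.03 and 2.64 TPM in the P213L libraries. They thus passed the minimum mean of 1 TPM only through the P213L libraries, so their positive direction is not a result. In a poly(A) library such rows can hold fragments of longer transcripts, and they do not measure the mature microRNA. The snoRNA genes Snord64 and Snord107 of the same region were at 0 in all libraries.

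The Snrpn-Ube3a region on chromosome 7 holds several paternally read genes and Ube3a, a ubiquitin ligase that neurons read from the maternal copy. Snrpn (chr7:59982495-60140219, minus strand) stood at 431, 442, 678 and 458 TPM in the WT and 405, 397 and 403 TPM in the P213L libraries. Each P213L value was under each WT value, and WT 3 was far above the other WT libraries. The means were 502 ± 118 TPM over the 4 WT libraries, 444 ± 13.2 TPM without WT 3 and 402 ± 3.86 TPM in the P213L libraries (SD, n = 4, 3 and 3). On the log2 scale the fold change was -0.30 ± 0.17 (SE; limma unadjusted p = 0.113, adjusted p = 0.827), and the exact permutation p was 0.0857. Without WT 3 it was -0.14 at a limma unadjusted p of 0.0252 and an adjusted p of 0.538. Over the 20 alternatives the adjusted p of Snrpn in limma ran from 0.0198, with sample weights, to 0.976. It was negative under all 4 scalings (-0.38 to -0.24).

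Magel2 (chr7:62377010-62381640, plus strand) encodes a MAGE protein of the endosomal sorting machinery and is intronless. It stood at 11.7, 11.8, 6.29 and 10.3 TPM in the WT and 12.9, 11.8 and 13.5 TPM in the P213L libraries. The P213L values lay above the WT values, but P213L 2 exceeded WT 2 only slightly, at 11.81 against 11.79 TPM. Its log2 fold change was 0.37 ± 0.22 (SE; limma unadjusted p = 0.129, exact permutation p = 0.114) and 0.17 without WT 3. The groups overlapped after median-of-ratios or quantile scaling and after mitochondrially encoded genes were removed.

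Ndn (chr7:62346569-62350262, plus strand) stood at 513, 260.03, 561 and 254 TPM in the WT and 292, 289.6 and 277 TPM in the P213L libraries. WT 1 and WT 3 lay well above the other 5 libraries, which spanned 254 to 292 TPM. Its log2 fold change was -0.38 ± 0.30 (SE) and -0.18 without WT 3. Mkrn3, which encodes a ring finger protein that restrains the onset of puberty, stood at 32.97, 34.8, 45.6 and 35.1 TPM in the WT and 35.2, 36.98 and 35.5 TPM in the P213L libraries. Its log2 fold change was -0.04, and 0.06 without WT 3, a change of sign. The groups were then apart by 35.18 against 35.14 TPM, and overlapped once median-of-ratios scaling was added. Peg12, a gene related to Frat1 of the Wnt pathway, stood at 2.20 to 2.77 TPM in the WT and 2.49 to 3.14 TPM in the P213L libraries. Ndn, Magel2 and Mkrn3 are close neighbours, and the high Ndn values of WT 1 were not matched in Magel2 or Mkrn3.

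Snhg14, the long host transcript of the snoRNAs that runs antisense through Ube3a in neurons, stood at 11.6, 16.2, 8.27 and 13.8 TPM in the WT and 9.78, 16.6 and 14.03 TPM in the P213L libraries. Ube3a stood at 10.2, 17.02, 10.9 and 13.7 TPM in the WT and 8.83, 15.7 and 11.8 TPM in the P213L libraries. Both varied as much within a group as between groups, with log2 fold changes of 0.12 ± 0.26 and -0.10 ± 0.24 (SE). Without WT 3 these were -0.06, a change of sign, and -0.17. The sources used here do not say whether reads were counted by strand, so reads of these overlapping genes may not be fully separated. The same holds for Airn within Igf2r, Mest beside Copg2, Nap1l5 within Herc3 and Zrsr1 within Commd1. Peg13 lies within Trappc9 on the same strand, so counting by strand would not by itself separate their reads. Reads of Mcts2 within H13 may not be fully separated either.

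Nnat and Blcap form a locus on chromosome 2, with Nnat lying in an intron of Blcap, a gene linked to restraint of cell growth. Nnat (chr2:157560078-157562522, plus strand) stood at 1113, 993, 1247 and 999.6 TPM in the WT and 1311, 1184 and 1196 TPM in the P213L libraries. WT 3 lay within the P213L range, and the other 3 WT values lay below it. The log2 fold change was 0.18 ± 0.11 (SE; limma unadjusted p = 0.143), and 0.25 without WT 3 at an unadjusted p of 0.0104 and an adjusted p of 0.513. Across the 20 alternatives the adjusted p of Nnat ran from 0.00931, with sample weights, to 0.976 in limma. Blcap stood at 147, 153, 153 and 164 TPM in the WT and 171, 157 and 157 TPM in the P213L libraries, with overlapping groups.

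Several paternally read genes are retrocopies, intronless copies of another gene's message that came to lie inside a host gene. Zrsr1, related to splicing factors of the minor spliceosome, stood at 30.7, 33.4, 28.7 and 34.2 TPM in the WT and 29.1, 28.8 and 28.6 TPM in the P213L libraries. The P213L values lay close together, WT 3 fell among them and the other 3 WT values lay above them. The log2 fold change of Zrsr1 was -0.13 ± 0.10 (SE), and -0.18 without WT 3 (limma unadjusted p = 0.0237, adjusted p = 0.537; over the alternatives 0.0102 to 0.976). The P213L values of Zrsr1 lay below all WT values also with all libraries kept once values were scaled by median-of-ratios or by quantiles, or once mitochondrially encoded genes were removed. Nap1l5 stood at 241, 346, 450.2 and 327 TPM in the WT and 229, 283 and 250.04 TPM in the P213L libraries. Its groups overlapped through WT 1, and its log2 fold change of -0.39 ± 0.20 (SE, limma unadjusted p = 0.0865) was the lowest of the 34 members. WT 3 was its highest library, and without WT 3 the value was -0.25. Without WT 1 it was -0.55, with the groups apart and a limma unadjusted p of 0.0105 (adjusted p = 0.546; over the alternatives 0.0118 to 0.991). Mcts2, a retrocopy related to a translation re-initiation factor, stood at 27.00 to 37.6 TPM in the WT and 26.1 to 28.8 TPM in the P213L libraries. Reads of a retrocopy can be shared with its parent gene, so these levels are uncertain. Commd1, the host of Zrsr1 and a regulator of copper handling and protein sorting, stood at 7.01 to 8.01 TPM in the WT and 6.60 to 7.65 TPM in the P213L libraries.

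Further genes tied to growth and hormone signalling overlapped between groups. Igf2r, the maternally read receptor that clears IGF2, stood at 21.99, 20.8, 7.91 and 19.9 TPM in the WT and 22.6, 20.8 and 22.2 TPM in the P213L libraries. Only WT 3 was low, and the log2 fold change was 0.40 with all libraries and 0.06 without it. Airn, the noncoding RNA that silences the paternal Igf2r copy in many tissues, stood at 1.12 to 2.03 TPM in the WT and 1.37 to 1.74 TPM in the P213L libraries. Grb10, an adaptor that dampens insulin signalling and is read from the paternal copy in neurons, stood at 22.4, 26.9, 14.6 and 23.2 TPM in the WT and 24.9, 25.3 and 21.8 TPM in the P213L libraries. Its neighbour Ddc, the decarboxylase that makes dopamine and serotonin, stood at 3.25 to 4.52 TPM in the WT and 3.09 to 3.53 TPM in the P213L libraries. Cdkn1c, a cyclin-dependent kinase inhibitor that lets progenitors leave the cell cycle, stood at 13.8, 17.1, 22.6 and 13.5 TPM in the WT and 17.1, 18.9 and 15.97 TPM in the P213L libraries. WT 3 was the highest library for Cdkn1c, and its log2 fold change was 0.07 with WT 3 and 0.22 without it. Kcnq1ot1, the noncoding RNA of the same cluster, stood at 0.545 to 0.956 TPM in the WT and 0.703 to 1.12 TPM in the P213L libraries. Calcr stood at 0.560 to 1.03 TPM in the WT and 0.695 to 0.823 TPM in the P213L libraries.

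Plagl1, a zinc finger factor known to act on other imprinted genes, stood at 10.5 to 14.6 TPM in the WT and 13.6 to 14.5 TPM in the P213L libraries. Mest, a paternally read hydrolase-like protein, stood at 14.8, 22.1, 8.67 and 20.03 TPM in the WT and 19.7, 22.1 and 22.1 TPM in the P213L libraries, with a log2 fold change of 0.45 ± 0.29 (SE) and 0.18 without WT 3. Copg2, a coat protein subunit of Golgi transport, stood at 32.5 to 44.6 TPM in the WT and 41.2 to 43.7 TPM in the P213L libraries. Gnas stood at 537, 493, 446 and 470.1 TPM in the WT and 520.3, 498 and 525 TPM in the P213L libraries. Its row sums transcript forms that are read from different copies, so a shift between them would not be seen. Impact, which restrains the stress kinase GCN2, stood at 58.1, 69.7, 55.1 and 65.2 TPM in the WT and 46.4, 62.1 and 55.8 TPM in the P213L libraries. Inpp5f, a phosphoinositide phosphatase, stood at 115 to 145 TPM in the WT and 113 to 139.5 TPM in the P213L libraries. For all of these the groups overlapped.

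Peg10, derived from a retrotransposon and best known from the placenta, stood at 15.4, 26.4, 9.59 and 17.05 TPM in the WT and 18.03, 23.3 and 19.9 TPM in the P213L libraries. WT 2 was the highest and WT 3 the lowest of the 7 libraries, and the log2 fold change was 0.33 ± 0.30 (SE) and 0.09 without WT 3. Sgce, for a sarcoglycan whose loss causes myoclonus dystonia in people, stood at 8.19 to 9.09 TPM in the WT and 8.25 to 9.12 TPM in the P213L libraries. Asb4, from the same cluster and part of a ubiquitin ligase complex, stood at 0.901 to 1.27 TPM in the WT and 1.04 to 1.52 TPM in the P213L libraries. Peg13, a noncoding RNA in an intron of Trappc9, stood at 129.8, 131, 72.7 and 129 TPM in the WT and 134, 125 and 130.4 TPM in the P213L libraries. Only WT 3 lay apart, and the log2 fold change was 0.21 with WT 3 and -0.00057 without it. Trappc9, a vesicle tethering subunit, stood at 18.6 to 29.5 TPM in the WT and 26.6 to 29.5 TPM in the P213L libraries, and WT 3 was again the lowest library.

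The Peg3 cluster on chromosome 7 holds Peg3, a paternally read zinc finger gene, Usp29, a deubiquitinase gene that starts beside it, and the maternally read zinc finger gene Zim1. Peg3 stood at 78.4, 93.8, 39.8 and 90.1 TPM in the WT and 76.1, 82.01 and 80.9 TPM in the P213L libraries. Zim1 stood at 7.68, 9.27, 3.64 and 9.64 TPM in the WT and 9.68, 9.92 and 9.39 TPM in the P213L libraries. Usp29 stood at 6.95 to 10.6 TPM in the WT and 8.74 to 10.4 TPM in the P213L libraries. Each of the 3 overlapped between groups, and each was lowest in WT 3. Their log2 fold changes were 0.15, 0.42 and 0.07 with all libraries and -0.13, 0.13 and -0.05 without WT 3.

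Genes of 1 locus were also compared within each library, as the difference between their log2(TPM + 0.5) values. This cancels a factor common to the library only where both genes lie far above the added 0.5. Kcnq1ot1, Asb4, Airn and, in WT 3, Igf2 (0.523 TPM) do not. To a lesser degree the added 0.5 also counts for Ddc, for Igf2 in the other libraries and for Zim1 in WT 3 (3.64 TPM). Of 15 such pairs, 9 set a paternally against a maternally read gene. Peg3 less Zim1 was 3.27, 3.27, 3.28 and 3.16 in WT and 2.91, 2.98 and 3.04 in P213L. Each P213L value was under each WT value, a difference of -0.27 (-0.26 without WT 3). In the exact permutation test its p was 0.0286, the smallest possible here, and 0.429 adjusted over the 15 pairs. This was the 1 pair of 15 whose groups did not overlap, and 0 of 15 passed an adjusted p of 0.05. With 15 pairs, a single pair at the smallest p cannot pass. Of the other pairs, Airn less Igf2r differed by -0.42 (-0.20 without WT 3), Mest less Copg2 by 0.32 (0.14 without WT 3) and Ndn less Magel2 by -0.74 (-0.35 without WT 3). Without WT 3, 5 of the 15 pairs changed sign. Snrpn less Ube3a went from -0.19 to 0.03, Peg10 less Asb4 from 0.12 to -0.08 and Kcnq1ot1 less Cdkn1c from 0.06 to -0.19. Peg13 less Trappc9 went from 0.05 to -0.02 and Peg3 less Usp29 from 0.08 to -0.08.

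**Figure D4:**
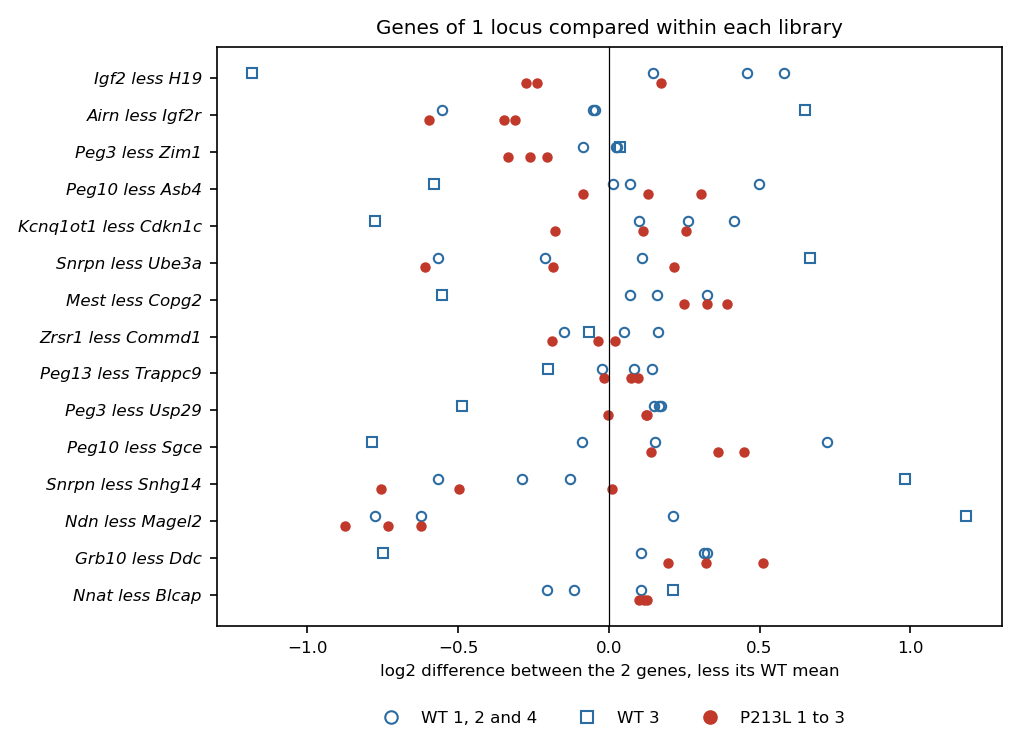
Log2 difference between 2 genes of 1 locus within each library, less the WT mean of that difference, for 15 pairs, with WT 1, 2 and 4 as open circles, WT 3 as an open square and P213L as filled circles. Peg3 less Zim1 is the pair whose P213L values all lie on 1 side of the WT values, and WT 3 lies farthest from the other libraries for several pairs.

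In the plot of pairs within each library, the groups overlapped for the other 14 pairs. WT 3 was below the other 6 libraries for Igf2 less H19 and above them for Snrpn less Snhg14, so taking differences did not remove its distance.

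Genes that keep imprints, and genes that set or remove them, were read from 2 lists. Over all genes tested, 63.4% had a positive fold change and 8.69% had groups that did not overlap. Of 18 genes for keeping the mark, 17 were tested, 14 with positive and 3 with negative log2 fold changes (median 0.15), 0 at an unadjusted p under 0.05 and 1 with groups that did not overlap. That gene was Zfp57, at 89.9, 70.7, 48.3 and 79.8 TPM in the WT and 97.9, 95.1 and 96.7 TPM in the P213L libraries. Its log2 fold change was 0.45 ± 0.20 (SE; limma unadjusted p = 0.0545, adjusted p = 0.827). Dnmt1, the enzyme that copies methylation after replication, stood at 49.97 ± 14.2 and 63.2 ± 2.12 TPM, and Trim28 at 170.2 ± 16.8 and 189.7 ± 8.82 TPM (SD, n = 4 and 3). Of 15 genes for setting or removing the mark 13 were tested, 11 positive and 2 negative (median 0.20). There were 0 at an unadjusted p under 0.05 and 2 with groups apart. Those 2 were Ezh2, a histone methyltransferase of the Polycomb complex, at 7.86 ± 0.463 and 9.12 ± 0.152 TPM, and Kdm1b, a histone demethylase of oocytes, at 19.5 ± 4.06 and 24.4 ± 1.42 TPM. Ehmt2, another histone methyltransferase, stood at 174 ± 41.1 and 217 ± 11.05 TPM. WT 3 held the lowest value of the 7 libraries for 5 of these 6 genes, all but Trim28. Without WT 3 the genes for keeping the mark divided 11 to 6 (median 0.05) and those for setting or removing it 6 to 7 (median -0.03). On the second list the groups were then apart for 4 of 13 genes, against 14.2% of all genes. Ezh2 (0.17) and Kdm1b (0.18) were higher in P213L. Tet2 (-0.28) and Tet3 (-0.12), which act in removing DNA methylation, were lower. The positive share over all genes was then 49.7%. Zfp57 stood at 0.27 on the log2 scale with groups still apart.

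Of 43 other imprinted genes on a list, 38 were in the table and 30 were tested, 20 positive and 10 negative (median 0.08), 2 of them with groups that did not overlap. The shares over all genes tested were 63.4% positive, 8.69% not overlapping and 3.74% at an unadjusted p under 0.05. Pon2, a paraoxonase of the Peg10-Sgce cluster, was at an unadjusted p under 0.05, at 15.5, 18.5, 21.4 and 19.1 TPM in the WT and 14.7, 14.5 and 13.8 TPM in the P213L libraries (log2 fold change -0.36 ± 0.13, SE; limma unadjusted p = 0.0260, adjusted p = 0.827). Its P213L values all lay below the WT values, and without WT 3 the fold change was -0.29. Cobl, the other gene with groups apart, was higher in P213L (log2 fold change 0.31 ± 0.24, SE). The list as a whole divided 14 to 16 without WT 3 (median -0.03). The groups were then apart for 5 of 30 genes, against 14.2% of all genes. Cobl was higher, and Pon2, Herc3, Rasgrf1 and Adam23 were lower. H13, the host gene of Mcts2 and a signal peptide peptidase, stood at 51.6 ± 4.74 and 59.99 ± 2.42 TPM, and Osbpl5, a lipid transfer protein, at 28.6 ± 6.78 and 36.4 ± 1.81 TPM (SD, n = 4 and 3).

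Other cell type lists were read as background to the members, since several are read in few cell types. Neuronal markers (15) summed to 7312 to 8260 TPM in the WT and 7798 to 8012 TPM in the P213L libraries, 12 positive and 3 negative, and 5 and 10 without WT 3. Markers of astrocytes and progenitors (11) divided 7 to 4, those of endothelial and mural cells (13) 6 to 7 and those of red blood cells (5 tested of 6) 2 to 3. Slco1a4, an endothelial marker lower in P213L, and Alas2, a red blood cell marker higher in it, had unadjusted limma p of 0.0493 and 0.0206. Markers of hypothalamic and monoaminergic cells (12 tested of 17), where Magel2, Ndn and Peg3 are known to be high, divided 6 to 6, and Kiss1 was at 0 in all libraries. Choroid plexus markers (8 tested of 12) divided 1 to 7, and 6 to 2 without WT 2. For comparison, 63.4% of all genes tested had a positive fold change with all libraries, and 3.74% were at an unadjusted p under 0.05. In each of these lists 0 genes passed the adjusted test, and their part in the values of the members was not tested.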

How the data were processed

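Messenger RNA of P7 mouse cortex was measured in 4 WT and 3 P213L samples. Per the labels' protocols, RNA was extracted with TRIzol and made into libraries with the TruSeq Stranded mRNA kit, which selects poly(A) RNA. The submitters' processing notes name HISAT2, HTSeq and mm10. Versions, annotation, gene lengths and the strand setting were not given in the sources used here. What the authors deposited is 1 table of TPM values, per the file headers, with genes as rows, in which every column sums to 1000000. Of its symbols 147 stand on more than 1 row, none of them a member, and 0 columns belong to other samples. TPM scales each library to 1 total, so a shift in abundant genes moves all others.

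Samples were grouped by title. Values were tested as log2(TPM + 0.5) for the 17582 genes averaging 1 TPM or more, with limma 3.58.1 in R 4.3.3 (mean-variance trend, two-sided, Benjamini-Hochberg over all genes, threshold 0.05). A fold change is P213L against WT on the log2(TPM + 0.5) scale, which understates it for low genes. Pairs and single members were also tested by exact permutation of the 7 samples (35 ways). The fit was tested on simulated data with the means and spread of these libraries. It called 13% of simulated log2 changes of 0.58 and 45% of changes of 1, so most changes of these sizes were missed. No count test was run. Depth was estimated by taking the commonest low value of TPM times vM21 exon length as 1 unit, over 48917 rows with a unique symbol. Of the 37 members, 30 lay within 0.05 of a multiple of 0.5 units in every library. 

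Gene positions come from GENCODE vM21 (the mm10 build) and sequences from RefSeq GRCm38.p6. All 37 members are named, and of each other list at most the 3 genes with the smallest p, plus genes a result turns on, such as Mir675. The members, the parental classes, the pairs and the lists were chosen with earlier results of these data known. Alternatives were other pseudocounts (0.1 and 1), filters, scalings and fits, a replicate block and each sample left out. Leaving out WT 2 and WT 3 together, and median-of-ratios scaling without WT 3, were chosen after seeing the data. Python 3.11.15, pandas 2.3.3 and matplotlib 3.10.9 were used for tables and figures.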

Additional observations from a re-analysis of the deposited data

Results flagged for a closer look

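In 52 groups of 4 WT values (the 37 members and the 15 pairs), the highest or lowest library was compared with the other 3 by Dixon's criterion, by which chance marks about 1 in 20 groups. It marked 5, of which 4 were values of WT 3. Igf2r stood at 7.91 TPM in WT 3 and at 19.9 to 22.0 TPM in the other 3 WT libraries. Snrpn stood at 678 TPM in WT 3 and at 431 to 458 TPM in the others. Peg13 stood at 72.7 TPM in WT 3 and at 129 to 131 TPM in the others. The log2 difference of Peg3 less Usp29 was 2.44 in WT 3 and 3.07 to 3.10 in the others. The log2 difference of Peg3 less Zim1 was 3.16 in WT 4 and 3.27 to 3.28 in the others, so the 1 pair whose groups did not overlap also had 1 WT library apart from the rest, on the side of P213L. Groups of 3 were not examined.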

How the results depend on the processing

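The count of 0 genes past an adjusted p of 0.05, over all genes and over the members, held under all alternatives but sample weights, which called 3981 genes and 7 members (H19, Impact, Magel2, Nap1l5, Nnat, Snrpn and Zrsr1). The cause was not tested. At an unadjusted p under 0.05 the 1 member became 3 (8.82%) with quantile normalization, 12 with sample weights and 1 to 4 (2.94 to 11.8%) with each library left out. The count was 4 (11.8%) without WT 2 and WT 3, and 4 (11.8%) with median-of-ratios scaling without WT 3. Over all genes that count was 657 (3.74%) with all libraries, 777 (4.42%) with quantile normalization and 6969 (39.6%, where the members' share was 35.3%) with sample weights. It was 910 (5.13%) without WT 2 and WT 3 and 1527 (8.62%) with median-of-ratios scaling without WT 3. Without WT 1 to 4 in turn it was 1571 (8.95%), 459 (2.61%), 1532 (8.65%) and 490 (2.8%). Without P213L 1 to 3 in turn it was 269 (1.53%), 391 (2.23%) and 315 (1.8%). Members whose groups did not overlap numbered 3 to 7 (8.82 to 20.6%) with each library left out, where 2029 to 4385 (11.6 to 25%) of all genes did not. Without WT 2 and WT 3 they numbered 8 (23.5%), where 3536 (20%) of all genes did not overlap. The median log2 fold change ran from -0.03 to 0.13 for paternally read members, changing sign without WT 3, among others, and from 0.04 to 0.20 for maternally read members. For the pairs the design is too small for the 0 past the threshold to speak of stability. The replicate numbers were not shown to pair the samples: same-numbered libraries deviated together at r = 0.13, 0.17 and -0.10, and the labels name no shared batch. With the replicate number as a block, 0 genes passed, 1 member (H19) was at an unadjusted p under 0.05, and the medians were 0.12 for paternally and 0.19 for maternally read members. Of 680 single fold changes under 20 alternatives, 669 moved by less than 1 SD and 11 by more (7 with sample weights, 2 with quantile normalization and 2 with median-of-ratios scaling). This count does not speak of stability, since a changed filter or a robust fit leaves a fold change as it was. Leaving out WT 3 moved none by more than 1 SD, although it took Igf2 from 0.66 to 0.09 and changed the sign of 6 members. Depth limits Phlda2, the small RNA rows and other values of few units.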

Other observations

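The split of Ndn within WT follows no group. WT 1 (513 TPM) and WT 3 (561 TPM) lay above the other 5 libraries, at 254 to 292 TPM, and the lower of the 2 was 1.76-fold above the highest of the 5. Among 12350 rows with a mean of at least 5 TPM, 4, Ndn included, had a gap between these 2 libraries and the other 5 at least as large. This gap was chosen after its values were seen. Magel2, the nearest member, had 11.7 TPM in WT 1 and 6.29 TPM in WT 3, and Mkrn3 had 32.97 and 45.6 TPM, so neither was high in both.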
